A study of Mus musculus with 10 samples.

Results

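The genes of methionine and one-carbon metabolism described here were Mat1a, Mat2a, Gnmt, Pemt, Ahcy, Bhmt, Bhmt2, Cbs and Cth. They were taken by symbol from the deposited gene table, each symbol matched 1 row, and all 9 of the 55291 rows passed the filter on low counts that left 17015 genes for testing. In the liver this pathway joins methionine and ATP into S-adenosylmethionine (SAM), the methyl donor of most methylation reactions. Methyl transfer leaves S-adenosylhomocysteine (SAH), which is split to homocysteine, and homocysteine is either methylated back to methionine, with betaine or folate as the donor, or passed through cystathionine to cysteine. Hepatocytes are the main site of this chemistry in the body.

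RNA was sequenced from 10 livers of female mice aged 16 to 20 weeks that carried a Cas9 gene behind a Lox-Stop-Lox cassette. Every mouse, controls included, received an AAV8 virus with a U6-driven guide and Cre under the TBG promoter, which is active in hepatocytes, so that other liver cells were not the intended target and remained in the whole-tissue RNA. The guide was a non-targeting control (NTC) or sgBap1, directed at Bap1, a nuclear deubiquitinase that acts on histone H2A and is a tumor suppressor. After 10 d the mice were injected with carbon tetrachloride (CCl4), a hepatotoxin that is activated by Cyp2e1 in hepatocytes around the central vein, diluted 1 part to 9 parts of olive oil, or with olive oil alone (vehicle, Veh) at 10 µL per g, and livers were taken 48 h later. The groups were NTC-Veh (n = 2), sgBap1-Veh (n = 2), NTC-CCl4 (n = 3) and sgBap1-CCl4 (n = 3). The labels number the livers as replicates without saying that each came from its own mouse, so the p-values measure the spread between these samples.

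Total counts ran from 3.30e+07 to 5.22e+07 per liver. Levels are given as CPM, the counts of a gene relative to the total of its liver, after scaling by the trimmed mean of M-values (TMM), and differences as log2 fold changes with the standard error (SE) and the Benjamini-Hochberg adjusted p of edgeR's quasi-likelihood test over 17015 genes, with a threshold of 0.05. Bap1 itself was at 34.8 and 34.8 CPM in NTC-Veh, 17.5 and 19.5 CPM in sgBap1-Veh, 30.1, 31.5 and 29.5 in NTC-CCl4, and 17.0, 21.8 and 19.1 in sgBap1-CCl4, and no sgBap1 liver reached the lowest NTC liver. Its difference was -0.91 with vehicle (SE 0.12, adjusted p = 0.0208) and -0.65 with CCl4 (SE 0.096, adjusted p = 0.0295). The hepatocyte marker list (9 genes) was detected in every liver with none of its genes at 0. The liver sgBap1-CCl4 2 stood apart through adipocyte genes: Adipoq was at 36.4 CPM and Plin1 at 34.5 CPM there, against at most 0.0425 and 0.0188 CPM in the other 9 livers. Its stellate cell markers summed to 1514 CPM, against 554 to 748 CPM in the other 5 CCl4 livers. The members' CCl4 differences in sgBap1 livers and the larger ones between guides with CCl4 are therefore also given without it. Most values of the interaction, the average over treatment, the wider list and the marker lists are given only with it.

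The 9 genes lie on 7 chromosomes of the mouse genome (GRCm38, GENCODE vM21 gene models). Mat1a lies on chromosome 14 (41105035 to 41124412, plus strand) and Mat2a on chromosome 6 (72432799 to 72439558, minus strand). Gnmt (46725664 to 46729168) and Cbs (31608894 to 31637238) both lie on the minus strand of chromosome 17. Pemt lies on chromosome 11 (59970614 to 60046489), Ahcy on chromosome 2 (155059310 to 155074497) and Cth on chromosome 3 (157894248 to 157925077), each on the minus strand. Bhmt (93616675 to 93637961) and Bhmt2 (93655720 to 93674302) are neighbors on the minus strand of chromosome 13. Only 130 bases separate the start of Bhmt2 from that of Dmgdh on the opposite strand, which encodes the dehydrogenase for dimethylglycine, the product of the betaine reaction. Noncoding genes overlap Mat2a (Particl), Gnmt (Gm26904), Ahcy (Gm45609) and Bhmt (Gm15622) on the other strand, and Gm43314 overlaps Cth on the same strand.

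Sequence upstream of 5 of the genes is shown: Gnmt, Ahcy and Bhmt, which CCl4 lowered strongly, Bhmt2, the neighbor of Bhmt, and Mat2a, which did not move with them. The sequences are those of RefSeq (GRCm38.p6), which held promoter entries for 7 of the 9 members, and each is written 5′ to 3′ on the gene's own strand up to the base before its start. Capitals mark matches to 8 short motifs searched on both strands. The window of Bhmt is 47 bases long because 203 of the 250 upstream bases of its RefSeq start lie inside the longer vM21 gene model, and that of Bhmt2 stops where Dmgdh begins. They lie on the minus strand at chr17:46729169-46729415 (Gnmt), chr2:155074498-155074747 (Ahcy), chr13:93637962-93638008 (Bhmt), chr13:93674303-93674432 (Bhmt2) and chr6:72439559-72439806 (Mat2a).
Gnmt: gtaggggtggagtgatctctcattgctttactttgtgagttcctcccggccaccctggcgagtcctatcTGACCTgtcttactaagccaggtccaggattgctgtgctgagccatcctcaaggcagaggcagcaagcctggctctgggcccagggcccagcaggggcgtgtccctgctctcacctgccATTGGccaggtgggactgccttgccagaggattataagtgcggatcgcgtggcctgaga
Ahcy: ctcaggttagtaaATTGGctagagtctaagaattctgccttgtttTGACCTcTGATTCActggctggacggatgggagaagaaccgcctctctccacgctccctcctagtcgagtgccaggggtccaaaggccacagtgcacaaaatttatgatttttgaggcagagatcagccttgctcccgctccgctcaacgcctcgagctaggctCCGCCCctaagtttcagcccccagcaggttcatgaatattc
Bhmt: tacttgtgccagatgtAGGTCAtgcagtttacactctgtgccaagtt
Bhmt2: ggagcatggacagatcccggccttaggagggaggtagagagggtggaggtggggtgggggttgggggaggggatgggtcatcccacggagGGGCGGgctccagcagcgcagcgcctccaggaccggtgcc
Mat2a: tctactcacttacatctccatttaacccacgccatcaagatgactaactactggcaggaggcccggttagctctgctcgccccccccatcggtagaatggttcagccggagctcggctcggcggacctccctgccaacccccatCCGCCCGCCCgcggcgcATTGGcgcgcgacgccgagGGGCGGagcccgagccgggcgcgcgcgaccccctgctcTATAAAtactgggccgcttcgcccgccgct

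The motif AGGTCA, the half-site of nuclear receptors, was found in the 250 bases upstream of Gnmt, Ahcy and Bhmt, 3 of the 7 members matched, and in 14% of all 32817 promoter windows of that length. Bhmt held 3 copies, of which 1 lies in the stretch shown. TATAAA, the TATA box, was found at Mat2a alone, 32 to 27 bases before its RefSeq start, and in 12.4% of all windows. GGGCGG, the GC box, was found at 4 members (Mat2a with 3 copies, Bhmt2 with 2, Cbs with 2 and Ahcy with 1) and in 32.7% of all windows, and 2 of the Mat2a copies overlap. CCAAT was found at 6 members, all but Bhmt2, and in 33.8% of windows. TGANTCA, the AP-1 motif, was found at Ahcy alone (6.75% of windows), where its first base lies 2 bases from the AGGTCA match. TTNNGNAA (C/EBP) was found at Pemt alone (36.8%), CACGTG (E-box) at Cbs alone (6.02%) and TGATGNAA (C/EBP-ATF) at no member (3.45%). Both RefSeq windows of Pemt lie wholly inside its longer vM21 gene model, with starts 9484 and 6301 bases within it. The matches of Pemt thus come from more sequence than the shares per window. The CCAAT match of Bhmt and its AGGTCA copies outside the stretch shown also lie inside its vM21 gene model. At Cbs the GC box 33 to 28 bases and the CCAAT match 15 to 11 bases before its RefSeq start do so too. The GC box 155 to 150 bases before the start of Bhmt2 lies inside Dmgdh. A match is a run of letters and was not tested as a binding site.

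With vehicle, the members covered a wide range of expression. The order between genes given here depends on its divisor, the union of all annotated exons (7485 bases for Cbs and 1206 for Gnmt). That is not the length of the transcripts expressed. Per kb of exon, the NTC-Veh mean was 1394 CPM for Mat1a (SD 39.8, n = 2), 1047 for Gnmt (SD 86.4), 627 for Ahcy (SD 66.7), 584 for Bhmt (SD 157), 149 for Pemt (SD 17.0), 113 for Bhmt2 (SD 10.8), 91.1 for Cth (SD 2.86), 77.2 for Cbs (SD 11.3) and 19.6 for Mat2a (SD 0.193). Neighbors in this order whose livers overlapped were Ahcy and Bhmt. For Cth and Cbs the SD intervals around the means met, although their livers did not overlap. After CCl4 the same scale in NTC livers (n = 3) read 197 for Mat1a (SD 44.2), 108 for Ahcy (SD 6.75), 86.8 for Pemt (SD 6.35), 86.1 for Gnmt (SD 16.8), 55.4 for Cbs (SD 5.13), 43.8 for Bhmt2 (SD 2.85), 19.97 for Mat2a (SD 0.690), 17.5 for Cth (SD 3.72) and 17.4 for Bhmt (SD 2.75). Bhmt, within the spread of Ahcy with vehicle, was within the spread of Cth and Mat2a at the low end after CCl4, and Gnmt was within the spread of Pemt. Mat2a was the lowest of the 9 in NTC-Veh.

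CCl4 lowered 8 of the 9 genes in NTC livers and 7 of 9 in sgBap1 livers. Bhmt, Gnmt, Mat1a, Ahcy and Cth were more than 5-fold lower in both, Bhmt2 and Pemt less so, Cbs was near the threshold, and Mat2a did not pass the test in either. Of all genes tested, 26.6% were called lower by CCl4 in NTC livers and 28.0% in sgBap1 livers, while 27.4% and 29.0% were called higher and 53.9% and 57.0% in either direction. The same 8 genes lay lower in every CCl4 liver than in every vehicle liver of their guide, where 35.0% of all genes did so in NTC and 34.9% in sgBap1 livers. A further 36.7% and 37.3% of all genes were higher without overlap, which makes 71.7% and 72.2% without overlap in either direction. The members' median log2 fold change was -2.38 in NTC and -2.62 in sgBap1 livers, against medians over all tested genes of 0.03 and 0.04. In bulk RNA, fewer cells of a type and less RNA per cell cannot be told apart. Because 80.5% (NTC) and 78.3% (sgBap1) of calls were higher when counts were scaled by library size alone, against 50.8% and 50.9% with TMM, the size and, for weakly changed genes, the direction of a CCl4 difference depends on the scaling. By library size alone the median gene moved by 0.50 in NTC and 0.52 in sgBap1 livers. Without the liver sgBap1-CCl4 2, the CCl4 differences in sgBap1 livers were -2.49 for Mat1a, -0.11 for Mat2a, -3.43 for Gnmt, -1.09 for Pemt, -2.50 for Ahcy, -5.88 for Bhmt, -1.94 for Bhmt2, -0.27 for Cbs and -2.61 for Cth. The same 7 genes passed the test as with it.

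**Figure D1:**
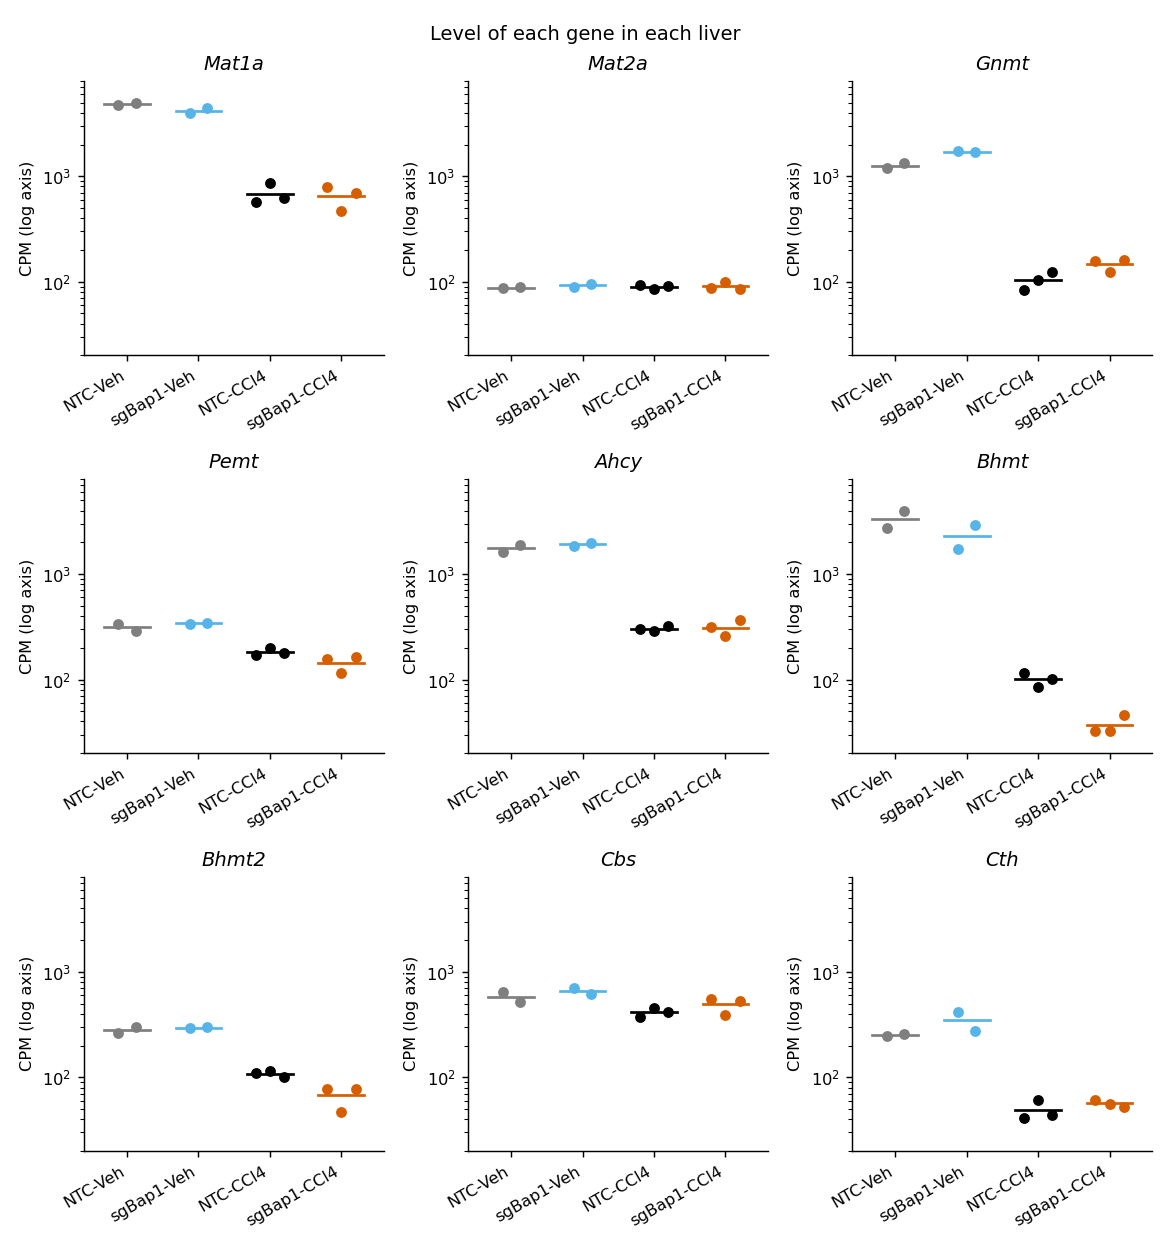
Level of each of the 9 genes in every liver, in TMM-scaled CPM on a log axis, with a point per liver and a line at the group mean. The CCl4 livers lie below the vehicle livers of the same guide for every gene except Mat2a, which stayed between 84.6 and 99.8 CPM in all 10 livers.

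Mat1a encodes the methionine adenosyltransferase of mature liver and makes most hepatic SAM. Its level was 4736 and 4931 CPM in NTC-Veh, 3939.6 and 4428 CPM in sgBap1-Veh, 568, 857 and 624 in NTC-CCl4, and 791, 465 and 699.7 in sgBap1-CCl4. Every CCl4 liver was below every vehicle liver, and the CCl4 livers of the 2 guides overlapped. CCl4 lowered Mat1a 7.08-fold in NTC livers (log2 fold change -2.82, SE 0.24, adjusted p = 7.70e-06) and 6.42-fold in sgBap1 livers (log2 fold change -2.68, SE 0.24, adjusted p = 9.89e-06). Mat2a encodes the adenosyltransferase found in most other tissues and in fetal liver. It was at 87.3 and 88.5 CPM in NTC-Veh, 90.0 and 94.8 CPM in sgBap1-Veh, 92.2, 86.2 and 90.4 in NTC-CCl4, and 87.0, 99.8 and 84.6 in sgBap1-CCl4. These values overlapped between vehicle and CCl4 for both guides. The CCl4 difference of Mat2a was 0.03 in NTC livers (SE 0.09, adjusted p = 0.820) and -0.03 in sgBap1 livers (SE 0.09, adjusted p = 0.792). With library size as the only scaling Mat2a read 0.50 (adjusted p = 0.00502) and 0.46 (adjusted p = 0.00783), close to that median.

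The ratio of the 2 adenosyltransferases within each liver is not affected by any scaling between livers. There were 1.84 and 1.80 Mat2a counts per 100 Mat1a counts in NTC-Veh, 2.29 and 2.14 in sgBap1-Veh, 16.2, 10.1 and 14.5 in NTC-CCl4, and 11.0, 21.5 and 12.1 in sgBap1-CCl4. All 6 CCl4 livers were above all 4 vehicle livers, and the highest value came from the liver with adipocyte genes. The log2 ratio was 2.78 higher with CCl4 than with vehicle across both guides, and 2.63 higher without sgBap1-CCl4 2. On the TMM scale this restates the fall of Mat1a beside the flat values of Mat2a, and it is given without a test. By library size alone Mat2a read 0.50 in NTC and 0.46 in sgBap1 livers, so the part of each gene in the ratio depends on the scaling. Between sgBap1 and NTC livers it differed by 0.19 (exact permutation test within treatment, two-sided p = 0.333, where 0.00833 is the smallest possible), and by 0.04 without that liver.

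Gnmt and Pemt spend SAM. Gnmt encodes glycine N-methyltransferase, an abundant liver enzyme that turns glycine into sarcosine and keeps the SAM to SAH ratio in check. Its level was 1189 and 1336 CPM in NTC-Veh, 1727 and 1694 CPM in sgBap1-Veh, 83.7, 104 and 124 in NTC-CCl4, and 156, 125 and 162 in sgBap1-CCl4. Every CCl4 liver lay far below every vehicle liver, and within each treatment the sgBap1 livers lay above the NTC livers without overlap. With CCl4 the guides nearly met, at 124.6 CPM in sgBap1-CCl4 2 and 124.1 CPM in NTC-CCl4 3. CCl4 lowered Gnmt 12.2-fold in NTC livers (log2 fold change -3.60, SE 0.18, adjusted p = 7.82e-07) and 11.6-fold in sgBap1 livers (log2 fold change -3.54, SE 0.18, adjusted p = 6.10e-07). Pemt encodes phosphatidylethanolamine N-methyltransferase, which uses SAM to make phosphatidylcholine. It was at 339 and 288 CPM in NTC-Veh, 337 and 344 CPM in sgBap1-Veh, 172, 198 and 178 in NTC-CCl4, and 156, 116 and 163 in sgBap1-CCl4. The order of the CCl4 livers was the opposite of that of Gnmt, with all sgBap1-CCl4 livers below all NTC-CCl4 livers. CCl4 lowered Pemt 1.72-fold in NTC livers (log2 fold change -0.78, SE 0.14, adjusted p = 0.00114) and 2.35-fold in sgBap1 livers (log2 fold change -1.23, SE 0.14, adjusted p = 5.47e-05). With library size as the only scaling these differences of Pemt were -0.30 (adjusted p = 0.0368) and -0.76 (adjusted p = 0.000158).

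Ahcy encodes S-adenosylhomocysteine hydrolase, which splits SAH into homocysteine and adenosine. It was at 1626 and 1891 CPM in NTC-Veh, 1853 and 1969 CPM in sgBap1-Veh, 299.6, 288 and 325 in NTC-CCl4, and 315, 256 and 363 in sgBap1-CCl4. The treatments were far apart and the guides overlapped within each of them. CCl4 lowered Ahcy 5.79-fold in NTC livers (log2 fold change -2.53, SE 0.16, adjusted p = 1.91e-06) and 6.14-fold in sgBap1 livers (log2 fold change -2.62, SE 0.16, adjusted p = 1.24e-06). Of the 50-base stretches of the Ahcy transcripts 68.7% also occur in other genes, most of them in the copies Gm4737 and Gm9826, whose counts came to between 16.6% and 20.4% of those of Ahcy, so that the split of reads between them is uncertain.

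Bhmt and Bhmt2 methylate homocysteine back to methionine, Bhmt with betaine and Bhmt2 with S-methylmethionine as the donor. Bhmt was at 2719.8 and 4002 CPM in NTC-Veh, 1709.8 and 2904 CPM in sgBap1-Veh, 116, 84.6 and 100.2 in NTC-CCl4, and 32.2, 32.7 and 45.9 in sgBap1-CCl4. The vehicle livers varied most among the 9 genes and overlapped between guides, whereas all sgBap1-CCl4 livers lay below all NTC-CCl4 livers. CCl4 lowered Bhmt 33.5-fold in NTC livers (log2 fold change -5.07, SE 0.29, adjusted p = 1.57e-06) and 62.5-fold in sgBap1 livers (log2 fold change -5.97, SE 0.30, adjusted p = 7.07e-07). These were rank 59 and rank 49 from the lowest log2 fold change among the 17015 genes. Bhmt2 was at 261 and 298 CPM in NTC-Veh, 294 and 299 CPM in sgBap1-Veh, 109, 115 and 101 in NTC-CCl4, and 77.4, 47.0 and 77.6 in sgBap1-CCl4. It shared the order of groups with its neighbor Bhmt after CCl4, at a smaller range. CCl4 lowered Bhmt2 2.58-fold in NTC livers (log2 fold change -1.37, SE 0.19, adjusted p = 0.000163) and 4.40-fold in sgBap1 livers (log2 fold change -2.14, SE 0.19, adjusted p = 1.03e-05). Bhmt shares 25.3% of its 50-base stretches with other genes, chiefly Gm5096 and Bhmt-ps1, whose counts were 10.8% to 15.8% of those of Bhmt.

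Cbs and Cth carry homocysteine to cysteine by transsulfuration. Cbs encodes cystathionine beta-synthase and was at 638 and 518 CPM in NTC-Veh, 697 and 616 CPM in sgBap1-Veh, 374, 451 and 419 in NTC-CCl4, and 556, 392 and 534 in sgBap1-CCl4. CCl4 livers lay below the vehicle livers of the same guide, by a margin that was small beside that of the other members. Cbs was 1.39-fold lower in NTC livers (log2 fold change -0.48, SE 0.17, adjusted p = 0.0327) and, in sgBap1 livers, -0.41 (SE 0.17) with an adjusted p of 0.0576, past the threshold only with DESeq2 (adjusted p = 0.0317) and when sgBap1-CCl4 1 was left out (log2 fold change -0.50, adjusted p = 0.0457). The NTC call was lost without NTC-Veh 1 (log2 fold change -0.32, adjusted p = 0.247), NTC-CCl4 1 (-0.41, adjusted p = 0.106) or NTC-CCl4 3 (-0.48, adjusted p = 0.0704). With library size as the only scaling the 2 differences of Cbs were 0.00055 (adjusted p = 0.998) and 0.058 (adjusted p = 0.728). Cth encodes cystathionine gamma-lyase, the next enzyme. It was at 249 and 259.8 CPM in NTC-Veh, 417 and 277 CPM in sgBap1-Veh, 41.5, 60.6 and 44.1 in NTC-CCl4, and 61.1, 56.1 and 52.3 in sgBap1-CCl4. Vehicle and CCl4 livers did not overlap. CCl4 lowered Cth 5.21-fold in NTC livers (log2 fold change -2.38, SE 0.19, adjusted p = 6.96e-06) and 6.14-fold in sgBap1 livers (log2 fold change -2.62, SE 0.19, adjusted p = 3.88e-06), and it passed the test by a wide margin in both guides where Cbs was near the threshold. The difference between Cbs and Cth was not tested.

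Added together, the 9 genes held 0.931% and 1.16% of all counts in NTC-Veh, 0.925% and 1.02% in sgBap1-Veh, 0.210%, 0.252% and 0.231% in NTC-CCl4, and 0.251%, 0.196% and 0.236% in sgBap1-CCl4. The 2 treatments did not overlap, and the lowest share was that of the liver with adipocyte genes. The mean after CCl4 was 22.1% of the vehicle mean in NTC livers and 23.4% in sgBap1 livers, or 25.04% in sgBap1 livers without sgBap1-CCl4 2. On the TMM scale, where the vehicle livers have scaling factors of 0.786 to 0.851 and the CCl4 livers of 1.08 to 1.24, these were 15.99% and 16.9%.

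**Figure D2:**
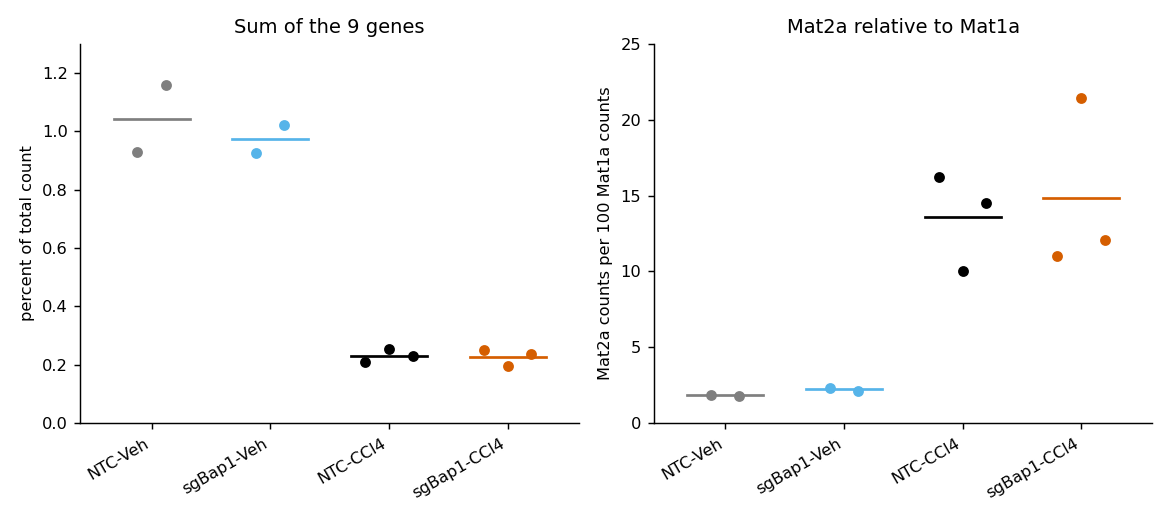
Left, summed counts of the 9 genes as percent of all counts in each liver. Right, Mat2a counts per 100 Mat1a counts in each liver. Points are livers and lines are group means. The share is 0.925% to 1.16% in vehicle livers and 0.196% to 0.252% in CCl4 livers, while the ratio runs from 1.80 to 2.29 in vehicle livers and from 10.1 to 21.5 in CCl4 livers.

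With vehicle, sgBap1 and NTC livers were compared to ask whether targeting Bap1 alone moved these genes. By edgeR's quasi-likelihood test 0 of the 9 members were called, where 0.406% of all genes were (0.276% higher and 0.129% lower), and DESeq2, which called 3.64% of its genes, also called 0. An unadjusted p under 0.05, reached by 12.3% of all genes, was reached by Gnmt, with a difference of 0.44 (SE 0.19, unadjusted p = 0.0434, adjusted p = 0.388 over all genes in edgeR). The other larger differences were 0.45 for Cth (SE 0.21, adjusted p = 0.425) and -0.54 for Bhmt (SE 0.29, adjusted p = 0.507). The livers of the 2 guides did not overlap for Gnmt, Mat1a, Mat2a and Cth, 4 of 9, where 40.9% of all genes did not overlap with 2 livers a group (21.7% higher and 19.2% lower in sgBap1-Veh). For Cth the sgBap1-Veh livers were themselves far apart, at 417 and 277 CPM. These misses of the threshold do not show equal levels.

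With CCl4, Bhmt was lower in sgBap1 than in NTC livers, 2.72-fold (log2 fold change -1.44, SE 0.24, adjusted p = 0.0479), and was 1 of the 9 members called, where 0.129% of all genes were called lower, 0.200% higher and 0.329% in either direction. All 3 sgBap1-CCl4 livers lay below all 3 NTC-CCl4 livers for Bhmt, Bhmt2 and Pemt and above them for Gnmt. For Gnmt the closest livers were at 124.6 and 124.1 CPM. Of all genes, 10.2% were lower and 10.1% higher without overlap, and 20.3% did not overlap in either direction. Bhmt2 was 1.61-fold lower (log2 fold change -0.68, SE 0.17, adjusted p = 0.121), Pemt differed by -0.33 (SE 0.13, adjusted p = 0.291) and Gnmt was 1.42-fold higher (log2 fold change 0.51, SE 0.16, adjusted p = 0.192), none past the threshold in edgeR. DESeq2, which called 3.08% of its genes, called Bhmt (adjusted p = 2.00e-07), Bhmt2 (adjusted p = 0.00784) and Gnmt (adjusted p = 0.0407). The remaining members differed by -0.07 (Mat1a), 0.01 (Mat2a), 0.03 (Ahcy), 0.25 (Cbs) and 0.21 (Cth), and none of these passed the test.

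The Bhmt call was close to the threshold. Its log2 fold change was between -1.64 and -1.32 whichever liver was left out. Its call was lost without NTC-Veh 1 (adjusted p = 0.0623), NTC-Veh 2 (adjusted p = 0.0623), NTC-CCl4 1 (adjusted p = 0.217), NTC-CCl4 2 (adjusted p = 0.0751), NTC-CCl4 3 (adjusted p = 0.108), sgBap1-CCl4 1 (adjusted p = 0.168) or sgBap1-CCl4 2 (adjusted p = 0.150). With the copies Gm5096 and Bhmt-ps1 added to Bhmt, the difference was -1.47 (adjusted p = 0.0412). Without the adipocyte-marker liver sgBap1-CCl4 2, Bhmt differed by -1.36, Bhmt2 by -0.48 (adjusted p = 0.103), Gnmt by 0.61 (adjusted p = 0.191) and Pemt by -0.20 (adjusted p = 0.544). That liver was the lowest of its group for Mat1a, Gnmt, Pemt, Ahcy, Bhmt2 and Cbs and the highest for Mat2a. The part of its adipocyte and stellate cell RNA in these differences was not tested.

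**Figure D3:**
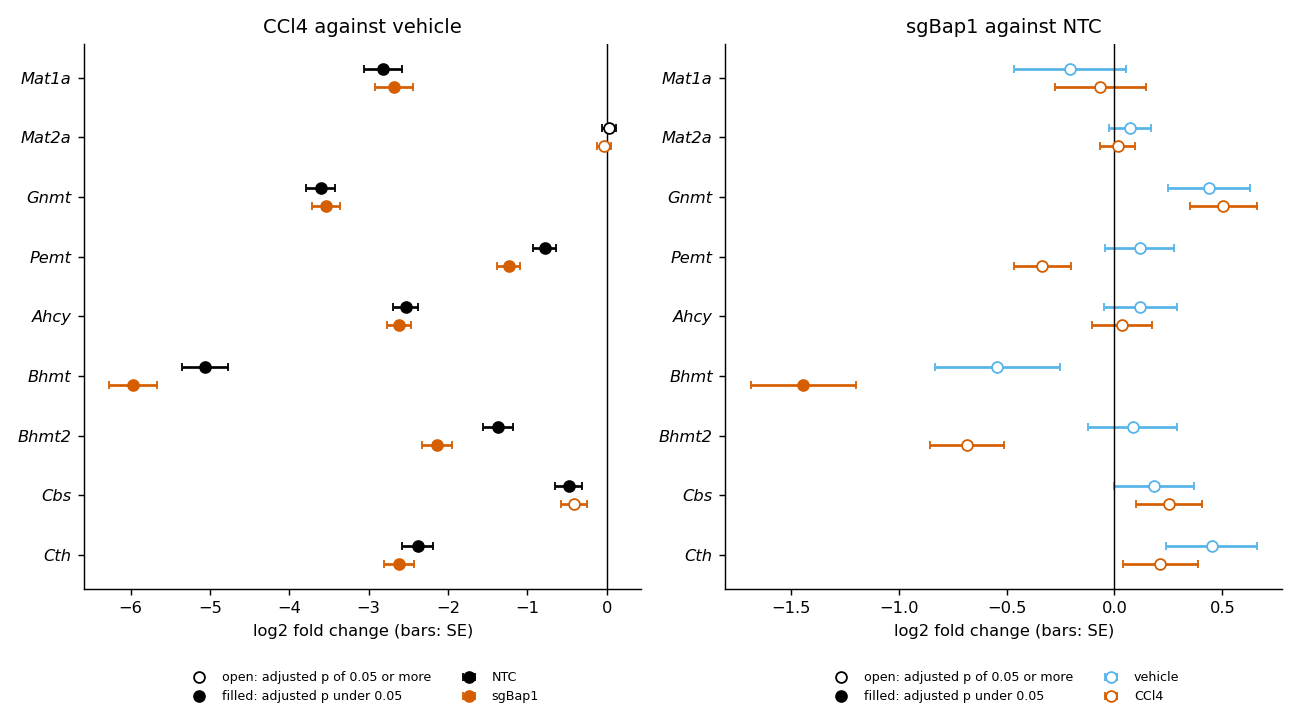
Log2 fold change of each gene with its SE. Left, CCl4 against vehicle in NTC and in sgBap1 livers. Right, sgBap1 against NTC with vehicle and with CCl4. Filled points have an adjusted p under 0.05 in edgeR. All CCl4 differences lie below 0 except that of Mat2a in NTC livers at 0.03, and among the sgBap1 differences the single filled point is Bhmt with CCl4 at -1.44.

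Whether CCl4 acted on the members to a different extent in sgBap1 and NTC livers was tested as an interaction. By edgeR's quasi-likelihood test 0 of the 17015 genes (0%) were called, with a smallest adjusted p of 0.0694 and 1764 genes at an unadjusted p under 0.05, while DESeq2 called 406 genes (2.70%), 0 of them members. For Bhmt the difference of the CCl4 changes was -0.90 (SE 0.38, unadjusted p = 0.0383, adjusted p = 0.443 in edgeR). Bhmt2 gave -0.77 (SE 0.27, unadjusted p = 0.0164, adjusted p = 0.335 in edgeR) and Pemt -0.45 (SE 0.21, adjusted p = 0.499). The larger fall of these 3 genes in sgBap1 livers was thus not past the threshold. Without the adipocyte-marker liver sgBap1-CCl4 2 the interaction was -0.57 for Bhmt2 and -0.32 for Pemt. Averaged over both treatments, sgBap1 against NTC called 0 members (0.411% of all genes), with Bhmt at -0.99 (SE 0.19, adjusted p = 0.0569), Gnmt at 0.47 (SE 0.12, adjusted p = 0.115), Cth at 0.33 (adjusted p = 0.275) and Bhmt2 at -0.30 (adjusted p = 0.312). In that average 4 of the 9 members had an unadjusted p under 0.05, as did 15.8% of all genes, and DESeq2, which called 4.33% of its genes, called Bhmt (adjusted p = 1.42e-05) and Gnmt (adjusted p = 0.00609).

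Around the 9 members, a list of 84 genes of the connected reactions was examined, in 8 groups and with no member in it. CCl4 raised 25 and lowered 48 of them in NTC livers (median log2 fold change -0.48, against 0.03 over all genes) and raised 23 and lowered 46 in sgBap1 livers (median -0.45, against 0.04). Of all genes, 27.4% were called higher and 26.6% lower in NTC livers, and 29.0% and 28.0% in sgBap1 livers. The list's counts of higher genes were near that share, and the counts of each group below stand beside the same shares. By library size alone the list's counts were 33 higher and 31 lower in NTC livers and 33 higher and 36 lower in sgBap1 livers. Several enzymes that take up the products of the members fell with them. Sardh, which oxidizes the sarcosine made by Gnmt, differed by -2.49 in NTC and -2.81 in sgBap1 livers. Dmgdh, named here after its values were seen because its start adjoins that of Bhmt2, was at 516 and 595 CPM in NTC-Veh, 547 and 556 CPM in sgBap1-Veh, 160.0, 156 and 166 in NTC-CCl4, and 139.7, 114 and 162 in sgBap1-CCl4. Its vehicle and CCl4 livers did not overlap, and it differed by -1.79 (adjusted p = 5.12e-06) and -1.99 (adjusted p = 2.86e-06). Adk, which clears the adenosine released by Ahcy, differed by -1.36 and -1.25, and all of these passed the test.

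Among the 6 methionine cycle partners 1 rose and 3 fell in both NTC and sgBap1 livers. Mat2b, the regulatory partner of Mat2a, fell by 0.43 and by 0.67 on the log2 scale. Mtr, the folate-dependent methionine synthase, rose by 0.37 in NTC livers (adjusted p = 0.0272) and was at 0.11 in sgBap1 livers (adjusted p = 0.463). Ahcyl2, a relative of Ahcy, rose by 0.53 in sgBap1 livers (adjusted p = 0.0168) and was at 0.29 in NTC livers (adjusted p = 0.154). By library size alone 3 of the 6 were called higher and 1 lower in NTC livers and 2 higher and 1 lower in sgBap1 livers, the median of the group turned from -0.23 to 0.24 and from -0.23 to 0.25, and Mat2b read 0.047 (adjusted p = 0.667) and -0.19 (adjusted p = 0.0814).

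Of the 18 folate genes 6 rose and 10 fell in NTC livers, and 6 rose and 9 fell in sgBap1 livers. Aldh1l1, the cytosolic formyl folate dehydrogenase, fell by 2.37 and 3.03, and Shmt1, the cytosolic serine hydroxymethyltransferase, by 1.73 and 2.12 on the log2 scale. The mitochondrial relative of Aldh1l1, Aldh1l2, had 1 to 11 counts in each vehicle liver and 2.64 to 7.41 CPM in each CCl4 liver, and was called higher in both (adjusted p = 0.000111 and 4.43e-05).

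Among the 9 genes of serine, glycine and sarcosine, 3 rose and 5 fell in each guide. The 3 that rose were the enzymes of serine synthesis, Phgdh, Psat1 and Psph, and the 5 that fell act on glycine, sarcosine or dimethylglycine (Amt, Gcsh, Sardh, Dmgdh and Pipox), while Gldc did not pass the test. Psat1, Psph, Amt, Gcsh, Pipox and Gldc are named here after their values were seen. Phgdh, which commits glucose carbon to serine synthesis, was at 0.191 and 0.139 CPM in NTC-Veh, 0.377 and 0.225 CPM in sgBap1-Veh, 7.57, 9.19 and 7.21 in NTC-CCl4, and 14.8, 18.8 and 13.8 in sgBap1-CCl4. It was 47.8-fold higher with CCl4 in NTC livers (log2 fold change 5.58, SE 0.30, adjusted p = 1.01e-06) and 50.4-fold higher in sgBap1 livers (log2 fold change 5.65, SE 0.27, adjusted p = 4.85e-07). The vehicle levels of Phgdh rest on few counts, since 3 counts read 0.0807 to 0.112 CPM in those livers, so the size of these folds is uncertain. All sgBap1-CCl4 livers were above all NTC-CCl4 livers, and Phgdh was the 1 gene of the 84 called between the guides with CCl4 (log2 fold change 0.98, SE 0.15, adjusted p = 0.0347). The call was lost without any 1 of the NTC-Veh, NTC-CCl4, sgBap1-CCl4 1 and sgBap1-CCl4 2 livers, 7 of 10 (0.84 and adjusted p = 0.0785 without the adipocyte-marker liver sgBap1-CCl4 2, and adjusted p up to 0.196), with the replicate block (adjusted p = 0.0567) and with only the 2 groups fitted (adjusted p = 0.0679). An unadjusted p under 0.05 was reached there by 21 of the 84 and by 14.0% of all genes, and DESeq2 called 6.

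Of the 11 choline and betaine genes 2 rose and 8 fell in NTC livers, and 2 rose and 9 fell in sgBap1 livers, whereas by library size alone 3 rose and 5 fell in each. Chdh, which starts the oxidation of choline to the betaine used by Bhmt, fell by 0.54 (adjusted p = 0.0137) and 0.77 (adjusted p = 0.00184) on the log2 scale, and by library size alone it read -0.069 (adjusted p = 0.679) and -0.30 (adjusted p = 0.0732). Slc6a12, a betaine carrier, fell by 2.12 and 2.64, and Etnk2, an ethanolamine kinase, by 2.51 and 2.54. Chka, a choline kinase of the other route to phosphatidylcholine, rose by 1.95 and 2.27.

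Below Cth, 3 of the 11 genes of cysteine, taurine, sulfide and glutathione rose and 6 fell in NTC livers, and 2 rose and 6 fell in sgBap1 livers. Cdo1, which oxidizes cysteine, fell by 2.55 and 2.26 on the log2 scale. Slc7a11, which imports cystine, had 1 to 5 counts in each vehicle liver. After CCl4 it was at 5.05, 15.6 and 13.2 CPM in NTC and 14.4, 17.2 and 9.20 CPM in sgBap1 livers, and it was called higher in both (adjusted p = 3.63e-05 and 3.85e-05). Gclc, the catalytic subunit of the first enzyme of glutathione synthesis, rose by 1.43 in NTC livers (adjusted p = 0.0230), where NTC-CCl4 2 stood at 732 CPM against 292 and 258 in the other 2, and was at 0.64 in sgBap1 livers (adjusted p = 0.231), or 1.11 by library size alone (adjusted p = 0.0438).

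Of 10 other methyltransferases that use SAM, 2 rose and 7 fell in each guide, and by library size alone 3 rose and 3 fell in NTC and 3 rose and 5 fell in sgBap1 livers. Inmt, which methylates indole amines, was at 351 and 384 CPM in NTC-Veh, 798 and 712 CPM in sgBap1-Veh, 40.1, 41.5 and 44.3 in NTC-CCl4, and 34.96, 35.9 and 43.9 in sgBap1-CCl4. With CCl4 it fell, with log2 fold changes of -3.13 in NTC and -4.30 in sgBap1 livers, and it was the 1 gene of the 84 called between the guides with vehicle, where sgBap1 livers were higher by 1.04 (SE 0.13, adjusted p = 0.0208). That call of Inmt was lost without any 1 of the 4 vehicle livers (adjusted p up to 0.112), with the replicate block (adjusted p = 0.0744) and with only the 2 groups fitted (adjusted p = 0.0546). In that comparison 15 of the 84 and 12.3% of all genes had an unadjusted p under 0.05, and DESeq2 called 2. Gamt, which makes creatine, fell by 2.13 and 2.50, and Nnmt, which methylates nicotinamide, by 1.24 and 1.00. Dnmt1, the maintenance DNA methyltransferase, rose by 1.99 and 1.77.

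The 12 genes of methionine salvage and polyamines had a positive median in both guides, 0.47 and 0.46, with 8 higher and 3 lower in NTC livers and 7 higher and 3 lower in sgBap1 livers. Smox, a spermine oxidase, rose by 1.48 and 2.31, and Paox, a polyamine oxidase, fell by 1.83 and 2.38 on the log2 scale. Of the 7 genes that handle cobalamin, the cofactor of Mtr, 0 rose in either guide and 6 and 4 fell, while by library size alone 1 rose and 2 fell in NTC livers and 2 rose and 2 fell in sgBap1 livers. Mmab fell by 1.32 and 1.14, and Tcn2, the carrier of cobalamin in blood, by 0.86 and 1.18. In the interaction 0 of the 84 genes were called by edgeR (12 at an unadjusted p under 0.05, as were 10.4% of all genes, and 2 called by DESeq2). Averaged over treatment 1 of them was called, the de novo DNA methyltransferase Dnmt3b (log2 fold change -0.94, SE 0.17, adjusted p = 0.0497). This call was lost without any 1 of the 10 livers (adjusted p from 0.0653 to 0.159).

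**Figure D4:**
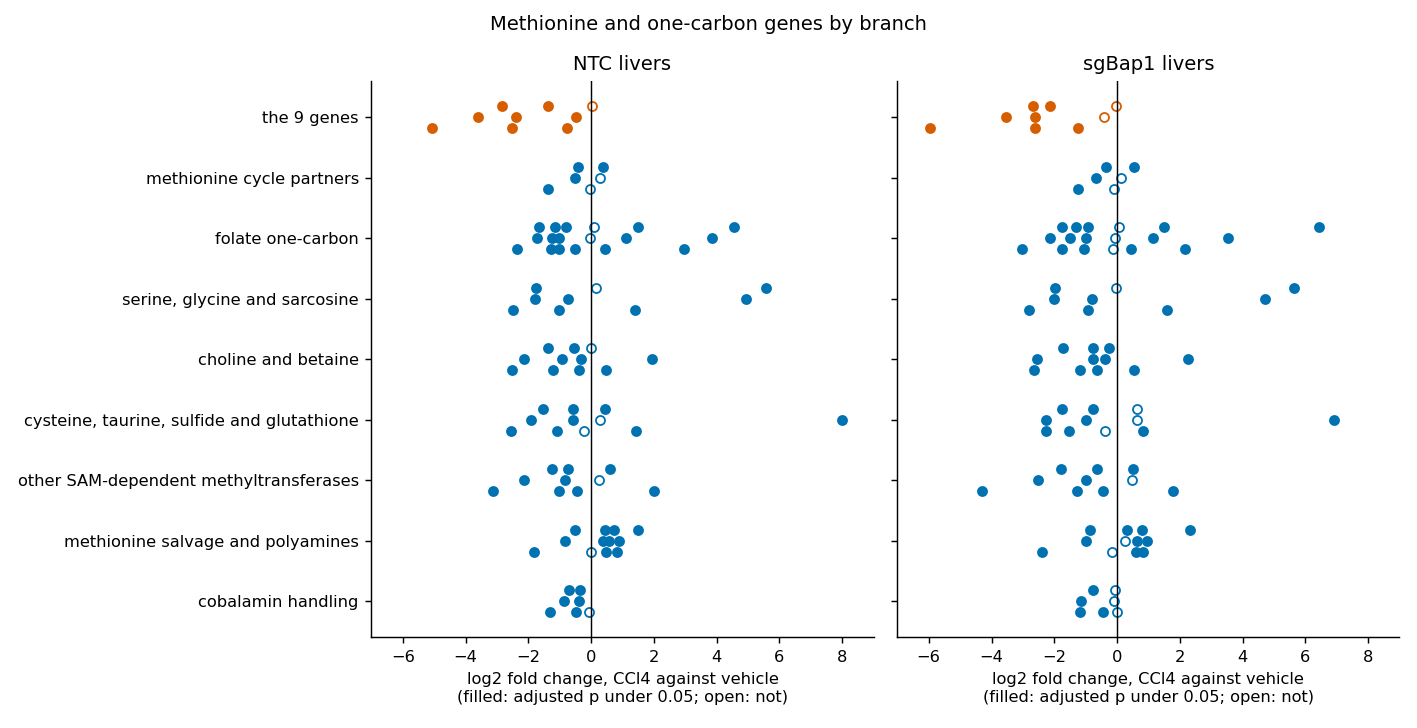
Log2 fold change after CCl4 of the 84 connected genes, by reaction group, in NTC and in sgBap1 livers, with a point per gene. The salvage and polyamine group has its median above 0 (0.47 and 0.46), and the other 7 groups have theirs below 0 in both guides. By library size alone the median of the methionine cycle partners is above 0 in both guides (0.24 and 0.25) and that of the cobalamin group in sgBap1 livers (0.022).

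Genes that mark liver cells and other cells were examined beside the members. CCl4 lowered 26.6% of all genes in NTC and 28.0% in sgBap1 livers. Of 9 general hepatocyte markers 8 fell in NTC livers (median log2 fold change -0.99) and 5 in sgBap1 livers (median -0.57). DESeq2 called 8 of the 9 in each guide. In the interaction 0 of the 9 had an unadjusted p under 0.05 in edgeR. With vehicle their summed level spanned 126009 to 157379 CPM for NTC and 114052 to 121115 CPM for sgBap1. With CCl4 it spanned 73682 to 85180 CPM for NTC and 66998 to 87733 CPM for sgBap1. All 7 markers of hepatocytes around the central vein fell in both guides (medians -2.76 and -2.87), with sums of 12647 to 16141 CPM over the 4 vehicle livers and 1175 to 1571 CPM over the 6 CCl4 livers. All 7 markers of hepatocytes around the portal vein fell too (medians -1.94 and -2.05), with sums of 10974 to 16320 CPM over the vehicle livers and 3520 to 5276 CPM over the CCl4 livers. The members' medians of -2.38 and -2.62 lie between these 2 lists and below that of the general hepatocyte list. The part of hepatocyte number or zone in the members' fall was not tested.

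Of the genes of other cell types, CCl4 raised 6 of 9 Kupffer cell and macrophage markers in NTC livers, and in sgBap1 livers raised 3 and lowered 2. It raised 4 of 8 lymphocyte markers in NTC and 0 in sgBap1 livers, all 4 neutrophil markers tested in both, and 6 and 5 of 8 stellate cell markers. Endothelial markers rose for 3 of 6 in NTC livers, and 2 rose and 2 fell in sgBap1 livers, while 2 of 6 cholangiocyte markers rose in both. All 6 proliferation genes rose in both, adipocyte markers rose for 1 and 2 of the 2 tested, and the 1 acinar gene tested fell in both. The adipocyte markers summed to 383 CPM in sgBap1-CCl4 2, against 23.3 and 22.0 CPM in sgBap1-CCl4 1 and 3. The stellate cell markers summed to 1514 CPM there, against 701 and 554 CPM. These marker counts are not given without that liver. Of all genes, 27.4% in NTC and 29.0% in sgBap1 livers were called higher, and 26.6% and 28.0% lower. Some of these counts were near those shares, such as the 33.3% of cholangiocyte markers. Between the guides with CCl4, 0 genes of any of these 12 lists were called by edgeR, where 0.329% of all genes were. Of the 7 markers of hepatocytes around the portal vein, 5 were higher and 2 lower in sgBap1 livers there (median 0.30). An unadjusted p under 0.05 was reached by 4 of these 7 and by 14.0% of all genes. DESeq2, which called 3.08% of its genes, called 3 of these 7, 1 general hepatocyte marker and 1 cholangiocyte marker. With vehicle 1 of the 9 Kupffer cell and macrophage markers was called, where 0.406% of all genes were. With vehicle all 9 of these were nonetheless on the higher side in sgBap1 livers (log2 fold changes of 0.92 to 1.16), 8 of them at an unadjusted p under 0.05 and 8 called by DESeq2. Their sum was 362 and 248 CPM in the NTC-Veh livers against 725 and 499 CPM in the sgBap1-Veh livers. All 8 lymphocyte markers were also on the higher side there (median 1.04, 5 at an unadjusted p under 0.05, 0 called by edgeR or DESeq2). Their part in the members' values was not tested.

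The 2 genes most like each member in log2 CPM over the 10 livers were named by Pearson's r among 12028 genes. They were Rbp4 (0.998) and Sirt3 (0.996) for Mat1a, Sult1d1 (0.997) and Adhfe1 (0.997) for Gnmt, Cyp2d26 (0.993) and Gcgr (0.991) for Pemt, Aldh6a1 (0.998) and Sardh (0.998) for Ahcy, and Gm5096 (0.998), its own copy, and Vmac (0.996) for Bhmt. For Bhmt2 they were Cyp2b9 (0.996) and Gm4756 (0.996), for Cbs Ctns (0.958) and Wbp1l (0.952), and for Cth Mxd4 (0.994) and Hdhd2 (0.993). Mat2a had no gene as close, with Acot11 (0.836) and Car5b (0.826) highest. For the 7 members with r above 0.99 the vehicle and CCl4 livers form separate sets, so that r reads mainly the step between them, and only 2 of these 18 neighbors (Acot11 and Ctns) were also chosen by rank correlation.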

How the data were processed

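The authors sequenced polyA RNA from the right lobe (TruSeq stranded mRNA, paired reads of 50 bases), aligned reads with STAR 2.7.6a to GRCm38 and quantified GENCODE vM25 genes with Salmon 1.4.0. The deposited values are estimated counts per gene, of which 9.22% were not whole. They were rounded to whole numbers, filtered with filterByExpr over the 4 groups, scaled by TMM and fitted in 1 model of all 10 livers with edgeR 4.0.16 (R 4.3.3; glmQLFit, robust, and glmQLFTest), which was tested on simulated data. DESeq2 1.42.0 was an alternative. CPM per kb used the exon union of vM21, the annotation used here. The named genes are the members, Bap1, 9 enzymes next to the members, and, per comparison and reaction group of the wider list, the called gene with the largest change each way with a mean of at least 100 counts. An item that this rule names is not reported here. Adipoq and Plin1 were named because an earlier result showed them high in 1 liver. Members and lists were chosen with earlier results of these data known. No 2 libraries agreed within sampling noise (chi-square per gene 14.4 to 83.4 on average between replicates), and none was left out. The kit was stranded, and the strand setting of the quantification is not given in the sources used here.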

Additional observations from a re-analysis of the deposited data

How the results depend on the processing

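Every alternative was run one at a time. The CCl4 calls of Mat1a, Gnmt, Pemt, Ahcy, Bhmt, Bhmt2 and Cth kept their direction and side of the threshold in both guides under every alternative and without any 1 liver. Cbs, Mat2a and the calls between guides did not. Mat2a, not called after CCl4 with TMM, was called higher in edgeR by library size alone (0.50, adjusted p = 0.00502 in NTC and 0.46, adjusted p = 0.00783 in sgBap1 livers). The number of members called between guides with CCl4, 1 by edgeR's quasi-likelihood test, was 0 without the filter on low counts, 0 with a mean of at least 10 counts, 0 with the quasi-likelihood method of edgeR 3 (an alternative chosen after seeing the data), 3 with DESeq2's Wald test, 2 with edgeR's likelihood ratio test, and 0 to 1 without any 1 liver. Bhmt had an adjusted p of 0.0642, 0.0508 and 0.0524 in the first 3 of these, and 7.67e-06 by the likelihood ratio test. The cause was not tested. Averaged over treatment, 2 members were called by DESeq2 and 2 by the likelihood ratio test.

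For the 84 connected genes, the counts with vehicle, with CCl4, in the interaction and in the average were 2, 6, 2 and 8 by DESeq2 and 2, 5, 1 and 7 by the likelihood ratio test, against 1, 1, 0 and 1. The average gave 0 with DESeq2 size factors, 0 with library size alone, 0 with copies pooled (chosen after seeing the data), 0 to 0 without any 1 liver, and 2 without the filter, which also gave 1 in the interaction. The counts with vehicle and with CCl4 were 0 and 0 when only the livers of the 2 groups compared were fitted, and 0 to 1 in each without any 1 liver. Over all genes, calls with vehicle, with CCl4, in the interaction and in the average were 548, 480, 406 and 674 by DESeq2 and 483, 498, 365 and 634 by the likelihood ratio test, against 69, 56, 0 and 70, and without the filter they were 103, 94, 34 and 108.

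Replicate numbers did not pair the livers, since the deviations of same-numbered livers from their group means correlated at -0.209 to 0.0899. With the replicate block the counts of the 84 were 0 with vehicle, 0 with CCl4 and 0 in the average, that of members with CCl4 was 0 (Bhmt -1.47, adjusted p = 0.0758), and calls over all genes were 1 with vehicle, 24 with CCl4 and 9 in the average.

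By library size alone, Cbs was at 0.00055 and 0.058 after CCl4 in NTC and sgBap1 livers and Mat2a at 0.46 in sgBap1 livers, and without the filter Mat2a was at 0.0016 there. The summed level after CCl4 was 15.99% and 16.9% of vehicle on the TMM scale. As a share of all counts, the level after CCl4 in NTC livers was 19.96% to 24.8% of vehicle without any 1 liver. Without any 1 liver, differences that crossed 0, none of them past the threshold, were those of Mat2a after CCl4 in sgBap1 livers (-0.11 to 0.0069) and of Bhmt2 between guides with vehicle (-0.012 to 0.19). With CCl4 they were Mat1a (-0.23 to 0.13), Mat2a (-0.062 to 0.051) and Ahcy (-0.10 to 0.16). In the interaction they were Ahcy (-0.22 to 0.035), Cbs (-0.086 to 0.21), Gnmt (-0.067 to 0.21), Cth (-0.50 to 0.090) and Mat1a (-0.021 to 0.34). Of the 18 nearest genes, 2 were also nearest by Spearman's rho.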
